A study of Homo sapiens with 10 samples.

Results

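GDF15 and 9 other secreted proteins of the TGF-beta superfamily or its extracellular control were followed in human fibroblasts in which p53 had been switched on with nutlin-3a. The genes were listed by symbol, in a choice made with earlier results of these data known. They were the ligands GDF15, INHBA, TGFB1, TGFB2, TGFB3 and BMP4, the ligand-binding proteins FST and FSTL1, and the latent TGF-beta binding proteins LTBP1 and LTBP2. All 10 were among the 13279 genes with an RNA-Seq value, and 9 were among the 11337 genes with a Ribo-Seq value, TGFB3 being in the RNA-Seq data alone. GDF15 was 288-fold above the control in RNA and 142-fold above it in ribosome density at 4 h, with values floored at 1 FPKM the highest change of 7015 genes in each assay, and had come down 5.41-fold and 4.73-fold from there by 6 h. TGFB1 and LTBP2 were highest at 19 h, BMP4 was lowest at 4 h, FSTL1 was nowhere below 0.873 of its control, and INHBA, TGFB2 and TGFB3 were below 1 FPKM in every library in which they had a value.

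The TGF-beta superfamily comprises secreted dimeric ligands that are made as precursors and signal through pairs of type I and type II receptor serine/threonine kinases to SMAD transcription factors. TGF-beta itself leaves the cell bound to its propeptide and to a latent TGF-beta binding protein, which tethers it to the matrix until it is released, while follistatin and related proteins capture activins and some BMPs outside the cell. GDF15 is a distant member that signals through GFRAL with the co-receptor RET, and it is a known transcriptional target of p53 that is widely used as a marker of cell stress.

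The cells were BJ fibroblasts, human primary fibroblasts immortalised with hTERT and grown in medium with serum. Nutlin-3a, a small molecule that keeps MDM2 from binding p53, was given for 2, 4, 6 or 19 h, and a control sample was profiled as well. Each of these 5 states was measured with 1 RNA-Seq library from poly(A) RNA and 1 Ribo-Seq library, in which the pieces of mRNA covered by ribosomes are sequenced. No group had a replicate, so no p-value was computed, differences are without any replicate check, and the 95% intervals given cover read counting only. All comparisons within an assay use the same control library. Rounded read totals were 23846000 to 27554000 in RNA-Seq and, lower, 7745000 (19 h) to 14461000 (4 h) in Ribo-Seq. Fibroblast markers were high throughout, with COL1A1 between 1501 and 2923 FPKM and VIM between 3431 and 4337 FPKM in RNA. Of the markers of other cell types, CDH1 (epithelium) did not exceed 0.025 FPKM and PTPRC (leukocytes) did not exceed 0.246 FPKM in RNA, DES (muscle) reached 0.923 FPKM in Ribo-Seq, and EPCAM, PECAM1 and CDH5 were not listed in the tables. Levels are in FPKM (reads scaled to transcript length and library size), and lists of values run in the order control, 2, 4, 6 and 19 h.

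The start regions are shown of the 3 members with the highest changes upward among those that passed the filter described below. Each has 1 annotated start, and a link of sequence to course was not tested. The sequences are the 250 bases before the RefSeq transcription start in GRCh38.p14, read 5′ to 3′ on the strand of the gene, and all 10 members had an entry. Capitals mark the letters TATAAA on either strand (the TATA box, a core promoter element) and the letters GGGCGG on either strand (the GC box, bound by SP1); the marked motifs did not overlap. GDF15 lies on chromosome 19 (plus strand, chr19:18385908-18386157), TGFB1 on chromosome 19 (minus strand, chr19:41353923-41354172) and LTBP2 on chromosome 14 (minus strand, chr14:74612238-74612487).
GDF15: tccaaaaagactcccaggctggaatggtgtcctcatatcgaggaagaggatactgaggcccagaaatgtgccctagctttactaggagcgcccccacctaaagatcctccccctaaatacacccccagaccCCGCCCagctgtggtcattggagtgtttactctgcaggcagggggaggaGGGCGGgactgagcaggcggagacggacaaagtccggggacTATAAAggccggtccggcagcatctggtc
TGFB1: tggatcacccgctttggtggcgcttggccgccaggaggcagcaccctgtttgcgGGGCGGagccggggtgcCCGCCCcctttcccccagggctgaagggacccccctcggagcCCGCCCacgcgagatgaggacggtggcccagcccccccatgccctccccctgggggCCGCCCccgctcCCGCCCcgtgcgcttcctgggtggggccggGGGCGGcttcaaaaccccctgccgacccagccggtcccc
LTBP2: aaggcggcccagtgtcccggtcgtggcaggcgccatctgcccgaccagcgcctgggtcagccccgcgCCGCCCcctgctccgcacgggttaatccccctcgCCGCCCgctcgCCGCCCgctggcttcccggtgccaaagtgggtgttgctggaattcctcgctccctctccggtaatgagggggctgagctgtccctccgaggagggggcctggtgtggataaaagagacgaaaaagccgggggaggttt

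In the GDF15 window the TATA box began 29 bases before the start, beside 2 GC boxes. The TGFB1 window held 6 GC boxes and no TATA box, and the LTBP2 window held 3 GC boxes and no TATA box. Among 35116 promoters of the same length, 10.7% held the TATA box and 42.6% held a GC box. The letters TATAAA were also present before INHBA, TGFB2 and 1 of the 2 starts of TGFB3, all of them genes at very low levels here. They began 29 bases before the start for TGFB2 and 30 for TGFB3, but only 11 for INHBA, closer than in GDF15. GC content was 58.4% for GDF15 and 76.8% for TGFB1, against a mean of 57.2%. The decamer that p53 response elements repeat was found in 5.57% of all promoters and, among the members, before 1 start of TGFB3 alone; the search covered these windows only.

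GDF15, a stress-induced ligand of the superfamily, was nearly absent from the untreated cells. Its RNA was 0.245 FPKM in the control (7 reads) and 4.82, 70.7, 13.1 and 14.8 FPKM at the 4 treated times. The treated libraries were all above the control, and that of 4 h stood alone. The 4 h value was 288-fold the control (95% counting interval 140.0 to 719), a wide interval because only 7 reads stood behind the control. The folds at 2, 6 and 19 h were 19.7, 53.3 and 60.6. With values floored at 1 FPKM, as the study's methods prescribe and as the counts of changed genes below use, the 4 h fold was 70.7. In the order of all 13279 RNA levels of a library, GDF15 moved from place 11680 in the control to 933 at 4 h and 4212 at 19 h.

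Ribosome density on the GDF15 mRNA followed the same course. It was 1.63 FPKM in the control (23 reads) and 12.3, 231, 48.8 and 52.7 FPKM at the 4 treated times. Again each treated library was above the control and the 4 h library was highest. The folds to control were 7.55, 142 (94.4 to 224), 30.0 and 32.4 at 2, 4, 6 and 19 h. At 4 h GDF15 had the highest ribosome density of the 9 members, at 231 FPKM (224 to 238) against 203 FPKM (199.8 to 206) for FSTL1, a constantly abundant member. These values are per length of the whole transcript, 1200 nt for GDF15 and 5943 nt for FSTL1, and the order per length of coding sequence was not examined.

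The height at 4 h was brief. From 2 to 4 h GDF15 went up 14.7-fold in RNA (12.4 to 17.4) and 18.8-fold in ribosome density (16.1 to 22.0). From 4 to 6 h it came down 5.41-fold in RNA (4.87 to 6.01) and 4.73-fold in density. Between 6 and 19 h the ratio was 1.14 in RNA (0.995 to 1.30) and 1.08 in density (0.956 to 1.22), intervals that include 1. CDKN1A, the p21 cell-cycle inhibitor, and MDM2, the ubiquitin ligase of p53, are p53 targets that serve here as a check of the treatment. CDKN1A RNA was 68.6, 212, 915, 1204 and 1316 FPKM, and MDM2 RNA was 14.9, 36.3, 203, 254 and 259 FPKM. Neither came down between 4 and 6 h: CDKN1A RNA rose a further 1.32-fold (1.296 to 1.34) and MDM2 RNA a further 1.25-fold (1.23 to 1.27), intervals far from that of GDF15.

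**Figure D1:**
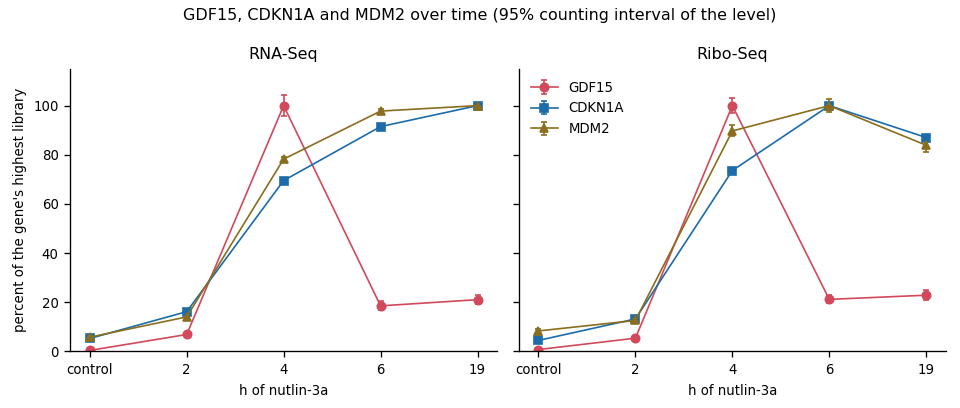
Level of GDF15, CDKN1A and MDM2 in each library as a percent of the same gene's highest library, against hours of nutlin-3a, for RNA-Seq (left) and Ribo-Seq (right). Points are single libraries and bars are 95% counting intervals; GDF15 peaks at 4 h (70.7 FPKM in RNA), while CDKN1A and MDM2 are still higher at 6 h than at 4 h in both assays.

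TGFB1, the main TGF-beta isoform of fibroblasts, was abundant before treatment. Its RNA was 88.7, 98.8, 129, 113 and 156 FPKM. The 19 h library was highest, 1.76-fold the control (1.70 to 1.82), short of 2-fold. Ribosome density climbed in each successive library, from 81.6 FPKM in the control to 92.0, 131, 176 and 206. It was 2.15-fold the control at 6 h (2.04 to 2.27) and 2.52-fold at 19 h (2.39 to 2.66). Between 4 and 6 h the assays parted: RNA was 0.873 of its 4 h value (0.845 to 0.903) while density was 1.34-fold higher (1.28 to 1.40).

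The other TGF-beta isoforms and the activin subunit were close to the limit of detection. INHBA, which encodes the activin A subunit, ranged from 0.118 FPKM in the control (17 reads) to 0.31 at 4 h (46 reads) in RNA and had between 2 and 12 reads per Ribo-Seq library. The 4 h library was the highest for INHBA in both assays, at levels below the 1 FPKM floor. As deposited, INHBA RNA was 1.86-fold (1.03 to 3.56), 2.63-fold (1.49 to 4.91) and 2.03-fold (1.13 to 3.83) the control at 2, 4 and 6 h, intervals that exclude 1. TGFB2 ranged from 0.213 (19 h) to 0.367 FPKM (2 h) in RNA and had between 6 and 33 reads in Ribo-Seq. TGFB3 ranged from 0.179 FPKM at 4 h (11 reads) to 0.396 FPKM at 19 h (26 reads) in RNA. None of the intervals of TGFB2 RNA to the control excluded 1 (at 2 h 1.301-fold, 0.825 to 2.08), while its density came down 3.83-fold from 4 to 6 h (1.59 to 11.2), from 33 to 6 reads.

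BMP4, a bone morphogenetic protein, was the 1 member past 2-fold lower among those that passed the filter described below. Its RNA was 13.6 FPKM in the control and 10.4, 5.38, 9.84 and 9.39 at 2, 4, 6 and 19 h. All treated libraries were below the control and the 4 h library was lowest, at 0.395 of the control (0.340 to 0.459). Ribosome density ran in parallel, at 13.3, 10.4, 4.26, 9.89 and 9.43 FPKM. The 4 h density was 0.320 of the control (0.256 to 0.397), the second lowest log2 change (-1.64) of 7015 genes at that time, with the RNA change (-1.34) in place 18 from the lowest. By 6 h BMP4 had returned 1.83-fold in RNA (1.57 to 2.14) and 2.32-fold in density (1.84 to 2.95) from its 4 h level. GDF15 and BMP4 had their extremes in the same libraries, in opposite directions. In these bulk libraries fewer cells of a type and less RNA per cell cannot be told apart.

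FST encodes follistatin, which binds and neutralises activins. Its RNA was 7.61, 8.57, 12.8, 8.05 and 7.48 FPKM, highest at 4 h at 1.69-fold the control (1.502 to 1.90) and back at 0.984 of it by 19 h (0.864 to 1.12). Its ribosome density was 7.22, 10.6, 12.5, 9.62 and 10.4 FPKM, above the control in every treated library and 1.73-fold at 4 h (1.46 to 2.04). FSTL1, a follistatin-like glycoprotein of mesenchymal cells, was the most abundant member in RNA and stayed near its control. Its RNA was 396, 380.1, 377, 380.4 and 361 FPKM, and its density was 215, 219.8, 203, 204 and 187 FPKM. The lowest ratio to control was 0.912 in RNA and 0.873 in density, both at 19 h, where the median tested gene was at a log2 change of -0.07 in RNA and -0.19 in density.

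**Figure D2:**
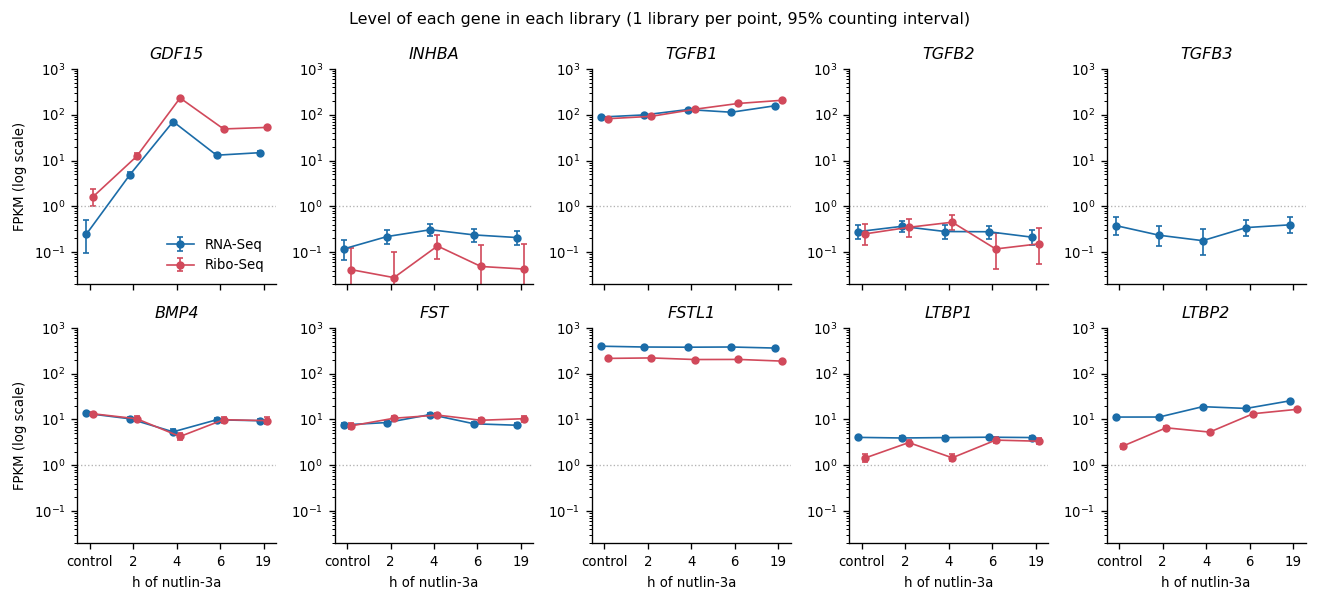
Level of each of the 10 members in FPKM (log scale) in the control and at 2, 4, 6 and 19 h of nutlin-3a, for RNA-Seq and Ribo-Seq; points are single libraries, bars are 95% counting intervals, and the dotted line marks 1 FPKM. GDF15 spans 0.245 to 70.7 FPKM in RNA, FSTL1 stays between 361 and 396 FPKM, and INHBA, TGFB2 and TGFB3 lie below the dotted line.

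The latent TGF-beta binding proteins LTBP1 and LTBP2 are long matrix proteins, with transcripts of 6153 and 8567 nt. LTBP2 RNA was 11.3, 11.3, 19.0, 17.4 and 25.4 FPKM. It was unchanged at 2 h (1.00-fold, 0.947 to 1.06), higher from 4 h on, and 2.25-fold the control at 19 h (2.15 to 2.37). LTBP2 ribosome density was 2.62, 6.59, 5.31, 13.3 and 16.6 FPKM. Every treated library exceeded the control, with folds of 2.51, 2.03, 5.10 and 6.34 (5.54 to 7.28 at 19 h). LTBP1 RNA was flat, at 4.07, 3.95, 4.03, 4.11 and 4.04 FPKM. LTBP1 density was 1.45, 3.14, 1.46, 3.55 and 3.36 FPKM, so the control and 4 h libraries were alike and those of 2, 6 and 19 h were 2.16-fold (1.71 to 2.75), 2.45-fold and 2.31-fold higher.

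Counts of changed members use the 6 with 5 FPKM or more in 1 or more libraries of both assays (GDF15, TGFB1, BMP4, FST, FSTL1 and LTBP2), with log2 changes on values floored at 1 FPKM and a call at 2-fold. GDF15 passed this filter in both assays, and LTBP2 in Ribo-Seq, only through treated libraries, so their upward calls were partly set by it. LTBP1, INHBA and TGFB2 had values in both assays and did not pass. Of the 6, 1 was past 2-fold higher in RNA at 2, 4 and 6 h, GDF15 each time, and 2 were at 19 h, GDF15 and LTBP2. Over all 7015 genes that passed, 0.927%, 1.41%, 1.75% and 2.49% were past 2-fold higher at these times. BMP4 at 4 h was the 1 member past 2-fold lower in RNA, where 0.684% of all genes were. No member was past 2-fold lower in RNA at 2, 6 or 19 h, against 0.0143%, 5.39% and 7.1% of all genes.

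More members were past 2-fold in ribosome density. GDF15 and LTBP2 were higher at 2 and 4 h, 2 of 6 at each time, against 2.12% and 2.58% of all genes. The LTBP2 call at 4 h, at a log2 change of 1.02, was lost with 1 FPKM added (0.80), with a floor of 5 FPKM (0.09) and with the median of all genes set to 0 (0.92). Its call at 2 h was lost with the floor of 5 FPKM (0.40). GDF15, LTBP2 and TGFB1 were higher at 6 and 19 h, 3 of 6 at each time, against 5.26% and 6.22% of all genes. BMP4 was again the 1 member past 2-fold lower, at 4 h, against 0.527% of all genes. None was past 2-fold lower at 2, 6 or 19 h, where 0.128%, 8.04% and 14.9% of all genes were. TGFB1 reached 2-fold in density and not in RNA; its density change exceeded its RNA change by 0.76 log2 units at 6 h (0.66 to 0.85) and by 0.52 at 19 h (0.42 to 0.61).

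**Figure D3:**
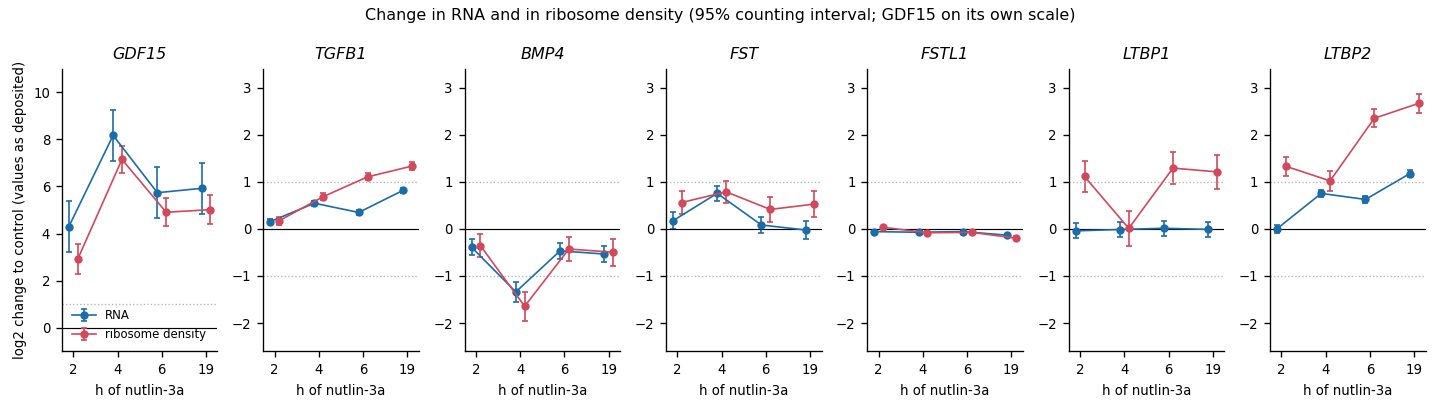
Log2 change to the control library in RNA and in ribosome density for the 6 members that passed the filter and for LTBP1, from values as deposited, with 95% counting intervals; dotted lines mark 2-fold. GDF15, on its own scale, reaches 8.17 in RNA at 4 h, BMP4 dips to -1.34 and -1.64 at 4 h, and LTBP2 reaches 2.66 in density against 1.17 in RNA at 19 h.

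Translational efficiency (TE), the ribosome density per RNA, separated the members. GDF15 had the highest ratio of Ribo-Seq to RNA-Seq FPKM among the members in every state. It was 6.65 in the control, with a wide interval of 2.77 to 18.4, then 2.55 (2.04 to 3.18), 3.27 (3.10 to 3.45), 3.74 (3.29 to 4.24) and 3.55 (3.12 to 4.04), against medians of all tested genes between 0.786 and 0.935. Each of the treated intervals overlapped that of the control. Among the treated libraries, the 2 h ratio of GDF15 was lower than that of 6 h, with intervals that did not overlap. The sign of the GDF15 TE change depended on the floor. With the floor it was 0.65, 1.00, 1.20 and 1.12 log2 units above the control at 2, 4, 6 and 19 h, and as deposited it was -1.38 (-2.64 to -0.12), -1.02 (-2.25 to 0.20), -0.83 (-2.07 to 0.40) and -0.90 (-2.14 to 0.33). The floor raises the control RNA from 0.245 to 1 FPKM and leaves the other GDF15 values as they are, so the direction of the GDF15 TE calls below was set by the floor.

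Past 2-fold higher in TE were 1 of 6 members at 2 h (LTBP2), 1 at 4 h (GDF15) and 2 at both 6 and 19 h (GDF15 and LTBP2). With a floor of 5 FPKM every LTBP2 TE call was lost (0.39, 0.79 and 0.56 at 2, 6 and 19 h). Of all tested genes 1.14%, 0.87%, 3.21% and 1.94% were past 2-fold higher at 2, 4, 6 and 19 h. No member was past 2-fold lower, against 0.057%, 0.128%, 2.54% and 4.21% of all genes. The Ribo-Seq to RNA-Seq ratio of LTBP2 was 0.232 in the control and 0.582, 0.279, 0.767 and 0.653 after treatment. LTBP1 gave 0.357, 0.794, 0.362, 0.865 and 0.832. In both genes the control and 4 h libraries were low and the libraries of 2, 6 and 19 h were high.

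That split of the libraries was not restricted to the LTBP genes. The ratio was lower in both the control and the 4 h library than in each of the others in 12.3% of the 7015 tested genes, in 28.3% of the 922 with transcripts of at least 5000 nt and in 9.73% of the 6076 shorter ones, a comparison made after the LTBP values were seen. Of the 436 genes past 2-fold higher in density at 19 h, 53.2% showed it. Their choice by density higher at 19 h than in the control partly set that share. Taken against the 2 h library in place of the control, the LTBP2 TE change at 4, 6 and 19 h was -1.06, 0.40 and 0.17, past 2-fold lower at 4 h and past 2-fold higher at no time, while its density change was -0.31, 1.02 and 1.33 and its RNA change was 0.75, 0.62 and 1.17. The part of this split in the LTBP1 and LTBP2 density and TE values was not tested.

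None of the remaining members that passed the filter was past 2-fold in TE. The ratio of TGFB1 was 0.921, 0.931, 1.02, 1.55 (1.49 to 1.62) and 1.32 (1.27 to 1.37), higher at 6 and 19 h than before. That of BMP4 was 0.978, 1.00, 0.791 (0.630 to 0.988), 1.01 and 1.00, lowest in the 4 h library, where its level was lowest too. FST gave 0.949, 1.24, 0.971, 1.19 and 1.39 (1.18 to 1.64), and FSTL1 stayed between 0.519 and 0.578. The BMP4 and FST ratios too were lower in the control and 4 h libraries than in each of the others. The intervals overlapped for BMP4 at all times and for FST at 2 and 6 h. The part of the library split in these ratios was not tested.

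**Figure D4:**
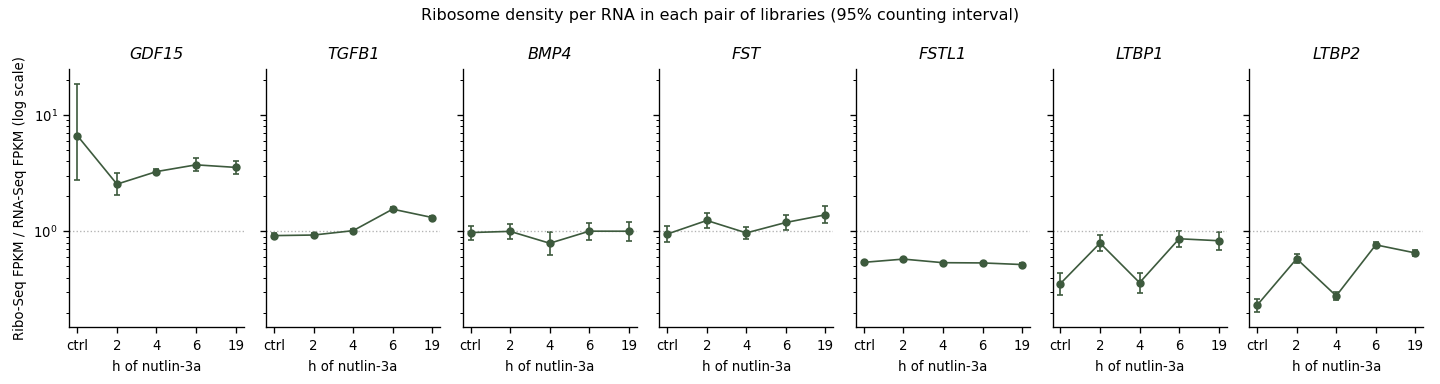
Ratio of Ribo-Seq to RNA-Seq FPKM (log scale) in the control and at 2, 4, 6 and 19 h of nutlin-3a for 7 members, with exact 95% counting intervals; the dotted line marks a ratio of 1. GDF15 lies between 2.55 and 6.65 throughout, and LTBP1 and LTBP2 are low in the control and at 4 h and higher in the other libraries.

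The order of the members by RNA level shifted through GDF15. In the control the order was FSTL1, TGFB1, BMP4, LTBP2, FST and LTBP1, neighbours whose counting intervals did not overlap, followed by TGFB3, TGFB2, GDF15 and INHBA, neighbours whose intervals did. At 4 h GDF15 stood directly behind FSTL1 (377 FPKM) and TGFB1 (129 FPKM) and ahead of LTBP2 (19.0 FPKM), and BMP4 had dropped behind FST.

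The genes whose course was most like that of GDF15 were sought among 978 tested genes with an RNA range of at least 2-fold, by Pearson's r of log2 FPKM over the 10 libraries after centring within each assay. They were FHL2, a LIM-domain protein (r = 0.99), AMIGO2, a cell adhesion protein (0.98), DDIT4, an inhibitor of mTORC1 (0.97), BBC3, the pro-apoptotic protein PUMA (0.96) and TRAF4, a signalling adaptor (0.96). All 5 had their highest RNA in the 4 h library, which their choice by likeness to GDF15 favoured. FHL2 RNA was 77.0, 107, 178, 145 and 143 FPKM, and DDIT4 RNA was 3.05, 10.8, 34.2, 10.1 and 12.1 FPKM. DDIT4, like GDF15, came down by 6 h, whereas TRAF4, at 33.8 FPKM at 4 h, was still at 25.6 FPKM at 6 h. These are descriptions over shared libraries and carry no p-value.

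For BMP4 the most similar genes were GAS1, a cell-surface protein named for growth arrest (r = 0.93), CNKSR3 (0.92), FKBPL (0.89), the transcription factor KLF4 (0.79) and the sterol sensor INSIG1 (0.73). GAS1 RNA was 8.34, 5.55, 2.01, 3.96 and 5.26 FPKM, lowest at 4 h, which its choice by likeness to BMP4 favoured. For LTBP2 they were MAP1A (0.97), COL7A1, the anchoring-fibril collagen (0.96), the heparan sulphate proteoglycan GPC1 (0.96), PLXNB2 (0.96) and the membrane-bound metalloproteinase MMP14 (0.96). COL7A1 RNA was 30.3, 26.6, 46.6, 73.0 and 109 FPKM, and its ribosome density was 5.98, 20.3, 8.51, 74.2 and 109.9 FPKM, again lower at 4 h than at 2 h.

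The rest of the pathway was read from 6 lists of genes. Of 31 other ligands 14 were in the tables and 0 passed the filter. GDF11 was the highest of them, between 6.25 and 7.04 FPKM in RNA and between 1.02 and 2.60 FPKM in Ribo-Seq, AMH reached 1.58 FPKM in RNA, and each of the remaining ligands stayed below 1 FPKM in every library. Among 21 receptors and co-receptors 16 were in the tables and 7 passed. In RNA 0 of these 7 was past 2-fold at any time. Of all genes 0.927% to 2.49% were past 2-fold higher in RNA and 0.0143% to 7.1% lower. ENG (endoglin, a co-receptor for TGF-beta) was the 1 receptor past 2-fold in density, with a log2 change of 1.08 at 19 h. At that time 6.22% of all genes were past 2-fold higher in density. The RNA change of ENG at 19 h was 0.27. Its Ribo-Seq to RNA-Seq ratio was lower in the control and 4 h libraries than in each of the others. The part of that split in the ENG call was not tested. TGFBR1 and TGFBR2, the TGF-beta receptor kinases, stood at 18.3 and 38.6 FPKM in the control and at 13.4 and 44.0 FPKM at 19 h in RNA. GFRAL, the receptor of GDF15, lay between 0.057 and 0.15 FPKM, and RET between 0.014 and 0.061 FPKM. The genes named here and in the next paragraphs were picked after their values were seen, except BHLHE40, ACTA2 and IL11, which a rule on the size of their RNA change picked.

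Of 27 extracellular binding and activating proteins 15 passed the filter, and 0 was past 2-fold in RNA at any time. Of all genes 0.927% to 2.49% were past 2-fold higher in RNA and 0.0143% to 7.1% lower. The median log2 RNA change of the 15 was 0.01, 0.14, 0.14 and 0.43 at 2, 4, 6 and 19 h, against -0.05, -0.07, -0.00 and -0.07 for all tested genes. In ribosome density 4, 1, 5 and 7 of the 15 were past 2-fold higher, against 2.12%, 2.58%, 5.26% and 6.22% of all genes, and the median change was 0.52, 0.31, 0.89 and 0.94 against 0.02, 0.10, -0.02 and -0.19 for all genes. FBN1, the microfibril protein fibrillin-1 to which latent complexes attach, had a density of 21.4, 69.4, 26.6, 88.9 and 104.9 FPKM, with the same low control and 4 h libraries as the LTBP genes. THBS1, thrombospondin-1, an activator of latent TGF-beta, had a density of 601, 1515, 982, 1990 and 2198 FPKM. Its log2 change at 19 h was 1.87 in density and 0.71 in RNA. GREM1, a BMP antagonist, peaked at 4 h instead, with RNA of 228, 272, 406, 312 and 276 FPKM and a log2 density change of 1.06. At 19 h LTBP3, FBN1, BGN, THBS1, BMP1, EMILIN1 and FSTL3 were past 2-fold higher in density. In all but FSTL3 the Ribo-Seq to RNA-Seq ratio was lower in the control and 4 h libraries than in each of the others. Their choice by density at 19 h partly set this. The part of the library split in the density counts of these binding and activating proteins was not tested.

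Of 19 SMADs and their regulators 11 passed the filter, and 2 were past 2-fold higher in RNA at 2 h, against 0.927% of all genes, and 0 at later times, against 1.41% to 2.49%. They were SMAD7, the inhibitory SMAD, at 14.5, 53.3, 22.2, 21.2 and 21.3 FPKM (log2 change 1.88 at 2 h), and SKIL, a SMAD co-repressor, at 9.82, 22.6, 17.1, 14.8 and 13.6 FPKM (1.20 at 2 h). In density SMAD7 was past 2-fold higher at 2 and 4 h (1.79 and 1.05), and TGIF1, a transcriptional co-repressor, was past 2-fold lower at 19 h (-1.30). Of all genes 2.12% and 2.58% were past 2-fold higher in density at 2 and 4 h, and 14.9% lower at 19 h. SMAD7, at 3.66 FPKM in the Ribo-Seq control, passed the filter in that assay only through treated libraries. The median RNA change of the 11 was 0.15, 0.21, -0.09 and -0.10, against -0.05, -0.07, -0.00 and -0.07 for all genes.

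Of 7 BMP-responsive genes 4 passed, the inhibitors of differentiation ID1, ID2, ID3 and ID4, and 3 of them were past 2-fold higher in RNA at 2 h, against 0.927% of all genes. ID1 RNA was 179.9, 413, 199, 249.5 and 243 FPKM. The log2 changes at 2 h were 1.20 for ID1, 1.05 for ID2, 1.59 for ID4 and 0.99 for ID3, which did not reach 2-fold. At 4, 6 and 19 h 0 of the 4 was past 2-fold in RNA. Of all genes 1.41%, 1.75% and 2.49% were higher at these times, and 0.684%, 5.39% and 7.1% lower. In density 3, 0, 2 and 2 of the 4 were past 2-fold higher at 2, 4, 6 and 19 h, against 2.12%, 2.58%, 5.26% and 6.22% of all genes. In RNA the 4 ID genes were highest at 2 h and BMP4 was lowest at 4 h. In density ID3 was highest at 6 h instead (798 FPKM). A link between the ID genes and BMP4 was not tested.

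All 23 TGF-beta-responsive fibroblast genes were in the tables and 17 passed. In RNA 3, 4, 2 and 2 of them were past 2-fold higher at 2, 4, 6 and 19 h against 0.927%, 1.41%, 1.75% and 2.49% of all genes. None was past 2-fold lower, where 0.0143%, 0.684%, 5.39% and 7.1% of all genes were. The medians were 0.01, 0.16, 0.31 and 0.54, against -0.05, -0.07, -0.00 and -0.07 for all genes. BHLHE40, a transcriptional repressor, had the largest change, with RNA of 6.24, 51.1, 24.0, 14.97 and 23.1 FPKM (log2 change 3.03 at 2 h). At 4.04 FPKM in the Ribo-Seq control, it passed the filter in that assay only through treated libraries. ACTA2, smooth muscle actin, a marker of myofibroblasts, was 21.5, 21.0, 48.3, 93.3 and 95.4 FPKM (2.15 at 19 h). Other contractile genes of the list did not follow it. TAGLN and TPM1 had log2 RNA changes of 0.07 and 0.005 at 19 h. CNN1, below the filter, went from 1.19 FPKM in the control to 0.29 at 19 h. IL11, a cytokine, was 13.3, 41.1, 32.6, 13.5 and 16.6 FPKM (1.63 at 2 h). In ribosome density 7, 3, 10 and 11 of the 17 were past 2-fold higher, against 2.12%, 2.58%, 5.26% and 6.22% of all genes, with medians of 0.91, 0.58, 1.07 and 1.31 against 0.02, 0.10, -0.02 and -0.19. They included matrix genes whose RNA was not past 2-fold, such as FN1, fibronectin, whose log2 change at 19 h was 2.41 in density and 0.76 in RNA, and COL5A1, a collagen V chain, whose changes were 2.79 and 0.78. Both were low in the same control and 4 h Ribo-Seq libraries as the LTBP genes, FN1 at 147, 476, 220.1, 696 and 781 FPKM and COL5A1 at 28.5, 77.3, 41.1, 159.9 and 197 FPKM. The part of that split in the density counts of this list was not tested.

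**Figure D5:**
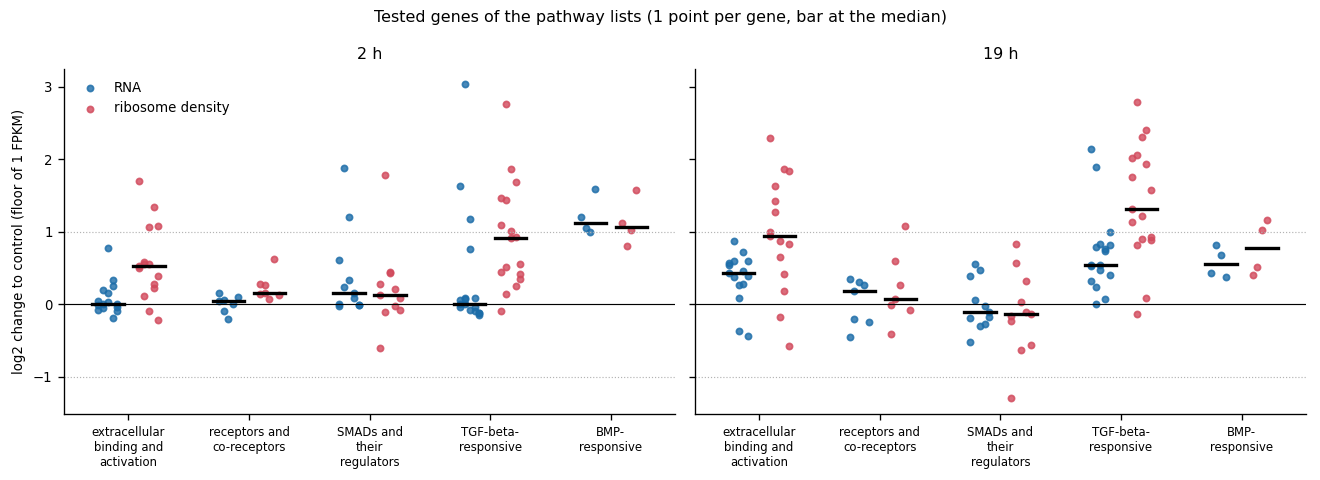
Log2 change to control (values floored at 1 FPKM) of each tested gene of 5 pathway lists at 2 h (left) and 19 h (right), in RNA and in ribosome density; 1 point per gene, black bars at the medians, dotted lines at 2-fold. At 19 h the medians of the extracellular and TGF-beta-responsive lists are 0.94 and 1.31 in density and 0.43 and 0.54 in RNA.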

How the data were processed

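RNA-Seq and Ribo-Seq values of BJ fibroblasts were used from 10 libraries, grouped by their sample titles. Bowtie was used by the authors to align reads to protein-coding transcripts of Ensembl release 65, 1 isoform per gene, with unique hits kept, and the values they deposited are FPKM; the submitters' processing notes name the build hg19. The 2 deposited tables carry the same column names. One is named for Ribo-Seq and the other was read as RNA-Seq, in which 28 histone transcripts, whose mRNAs lack poly(A), had a control median of 0.597 FPKM against 817 in Ribo-Seq. The methods describe Ribo-Seq levels from coding-sequence reads, but the values scaled to whole transcript lengths, and which reads entered was not resolved. The methods also describe a batch effect of sequencing runs; which of these libraries shared a run was not used here.

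Transcript lengths, library totals and reads were worked out from the steps between FPKM values (99.8% of 11258 transcripts in both tables), a step tested on simulated data. They gave exact Poisson intervals for levels, exact binomial intervals for ratios of 2 libraries and counting errors of log2 changes, and entered no test. PCR copies could not be told apart, so these cover counting error only.

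Values were floored at 1 FPKM, log2 ratios were taken to the control of the same assay, and genes with at least 5 FPKM in 1 library of each assay (7015) were called at 2-fold. The members and lists were chosen with earlier results of these data known. Named genes were the 10 members, CDKN1A and MDM2, up to 4 genes per list past 2-fold in RNA at 19 h or at 2 times, and the 5 genes most similar to GDF15 and to the 2 other members with the widest RNA range. Promoters came from RefSeq (GRCh38.p14). Alternatives were a floor of 5 FPKM, 1 FPKM added, no floor, no filter, a mean of 20 FPKM, the 2 h library as baseline, centring on the median and a call at 1.5-fold. Python 3.11, numpy 2.4.6, pandas 2.3.3 and scipy 1.17.1 were used.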

Additional observations from a re-analysis of the deposited data

How the results depend on the processing

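No paired analysis was possible because each group held 1 library and no replicate numbers are shared. Leaving out replicates did not apply. The depth limits INHBA, TGFB2, TGFB3 and the GDF15 control, with 7 RNA-Seq reads. With no floor, an alternative chosen after the data were seen, the GDF15 TE change turned from upward to -1.02 at 4 h, -0.83 at 6 h and -0.90 at 19 h, and the members past 2-fold in TE were 2 at 2 h (LTBP2 higher, GDF15 lower), 1 at 6 h and 1 at 19 h. With 1 FPKM added, members past 2-fold in TE numbered 0 at 4 h and 1 at both 6 and 19 h, and the LTBP2 density call at 4 h was lost (0.80). A floor of 5 FPKM gave 0 members in RNA at 2 h, 1 in density at 2 h and 1 in TE at both 6 and 19 h. It ended all LTBP2 TE calls (0.39, 0.79 and 0.56) and its density calls at 2 and 4 h (0.40 and 0.09), with GDF15 (1.30) in place of LTBP2 in TE at 2 h. With no filter, 2 members were past 2-fold in TE at 2 h, LTBP1 being added, and the pathway genes past 2-fold in RNA were 4 at 6 h and 7 at 19 h. A mean of at least 20 FPKM in each assay, which leaves 3 members, gave 1 member in RNA at 4 and 19 h, 1 in density at 2 and 4 h, 0 in TE at 2 h and 1 in TE at 6 and 19 h, and 4, 1 and 1 pathway genes in RNA at 2, 6 and 19 h. With the 2 h library as baseline, the LTBP2 density change at 4 h turned to -0.31, members past 2-fold were 1 in RNA at 4 h and 0 in TE at 6 and 19 h, and pathway genes in RNA were 7, 6 and 8 at 4, 6 and 19 h. Against that baseline the BMP4 RNA change at 4 h (-0.95) and the TGFB1 density change at 6 h (0.93) fell short of 2-fold. Centring on the median gave 0 members in TE at 4 h and ended the LTBP2 density call at 4 h (0.92). A call at 1.5-fold gave 4 and 2 members in RNA at 4 and 6 h, 5 in density at 4 h and 2 in TE at 2 h, and 10, 7 and 14 pathway genes in RNA at 4, 6 and 19 h.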

Other observations

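Some genes of the pathway lists lay below the filter and still differed between libraries, given here as values picked after they were seen. MSX2, a homeobox gene induced by BMPs, had RNA of 1.05, 0.85, 1.64, 2.87 and 3.18 FPKM in the control and at 2, 4, 6 and 19 h. PMEPA1, a membrane protein that restrains TGF-beta signalling, had 1.18, 1.40, 3.15, 2.83 and 2.84 FPKM in RNA. ELN, elastin, had 0.342, 0.293, 0.858, 1.30 and 1.45 FPKM in RNA and 0.44, 0.321, 0.903, 2.19 and 3.02 FPKM in Ribo-Seq. HAS2, a hyaluronan synthase, was highest at 4 h, with 3.34, 4.15, 6.38, 2.96 and 1.62 FPKM in RNA. BAMBI, a pseudoreceptor that blocks BMP and TGF-beta receptors, was lowest at 4 h, as BMP4 was, with 3.44, 2.63, 1.40, 2.61 and 1.78 FPKM in RNA.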
